A study of Homo sapiens with 179 samples.

Results

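The genes described here encode the proteasome. They were taken by name from a table of 19084 genes, as every symbol that begins with PSM, a letter from A to G and a number, and no measured value entered the choice. The rule found 49 genes, of which 48 encode subunits of the particle or the proteins that assemble, activate or inhibit it. The remaining 1, PSMC3IP, resembles the ATPase gene PSMC3 only in name, since its product acts in meiotic recombination, and it was kept apart from the counts by role.

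All RNA came from H1 cells, an established line of human embryonic stem cells, and was sequenced as 179 libraries. All groups shared the same culture, on Matrigel-coated plates in the defined medium E8, with no other treatment named. The study set a commercial kit, Illumina TruSeq, beside LM-Seq, a low-cost strand-specific protocol, and asked how far many LM-Seq samples can share 1 sequencing lane. The TruSeq libraries formed the groups H1p16 (n = 3) and H1p43 (n = 3), with 12 samples per lane, and LM-Seq gave 95 libraries sharing Lane 1, 48 sharing Lane 2, 24 sharing Lane 3 and 6 sharing Lane 4. No source used here says what the letter p means in H1p16 and H1p43. LM-Seq libraries carry numbers that recur across lanes, and no source says whether a number marks 1 library loaded in several lanes. The labels do not tell whether replicates are separate cultures, and a p-value here reflects the spread among libraries alone, part or all of which may be technical.

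The proteasome degrades proteins that carry chains of ubiquitin. Its 20S core is a barrel of stacked alpha and beta rings, in which the alpha subunits (PSMA genes) form the gate and 3 of the beta subunits (PSMB5, PSMB6 and PSMB7) cut the substrate. The 19S cap sits on the end of the barrel, recognises ubiquitin, removes it through PSMD14 and unfolds the substrate with a ring of 6 ATPases (PSMC genes). In cells exposed to interferon, PSMB8, PSMB9 and PSMB10 take the places of PSMB5, PSMB6 and PSMB7 to form the immunoproteasome, which favours peptides for presentation on MHC class I. The activators PSME1 and PSME2 (PA28 alpha and beta), PSME3 (PA28 gamma) and PSME4 (PA200) open the barrel without ubiquitin. Embryonic stem cells are known for high proteasome activity.

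Library totals ranged from 23680503 to 35852646 expected counts in TruSeq and from 15780078 to 16583048 in Lane 4, and fell to between 1040671 and 1539277 in Lane 1, so values of weakly expressed members are least certain there. All 8 pluripotency markers examined were at a mean of at least 1 TPM (a level scaled for transcript length and for the library total) in every group. Their summed level was 7892 to 8134 TPM in H1p16, 6420 to 6461 TPM in H1p43 and 10560 to 11510 TPM in Lane 4. None of 8 mesendoderm markers reached a mean of 1 TPM in any group. Of 8 fibroblast or stroma markers, 5 reached 1 TPM in each group, with COL3A1, LUM and DCN below it, and their sum was 408.6 to 422 TPM in H1p16, 540.3 to 564 TPM in H1p43 and 321 to 359.6 TPM in Lane 4. Of 6 leukocyte markers, which would mark cells rich in immunoproteasome, none reached 1 TPM in H1p16 or in the lanes, and the sum of the list was 0.74 to 1.10 TPM in H1p16 and 1.33 to 1.74 TPM in H1p43.

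Together the 48 genes made up 0.931% ± 0.0153 (SD, n = 3) of all TPM in H1p16, 0.892% ± 0.0035 (SD, n = 3) in H1p43, 0.963% ± 0.0212 (SD, n = 95) in Lane 1 and 0.964% ± 0.0113 (SD, n = 6) in Lane 4. Most members were abundant, as the plot of levels by gene shows. Among TruSeq libraries the highest was PSMB4, a beta subunit with no cutting site, at a mean of 605.1 TPM ± 18.4 (SD, n = 6). In Lane 4 the highest was the alpha subunit PSMA2, at 585.2 TPM ± 18.9 (SD, n = 6), ahead of PSMD14 and PSMC3. At the other end stood genes known from other tissues. PSMB11, the catalytic subunit of the thymus form, had no count in any of the 179 libraries, where a count of 0 allows up to 3 counts per library by counting error alone. PSMA8, the alpha subunit of the testis form, had 5 counts over the 6 TruSeq libraries and 13 over the 6 libraries of Lane 4. Neither gene passed the filter on low counts, so 47 of the 49 members entered the comparisons of H1p43 with H1p16 and of Lane 4 with TruSeq. PSMB9 failed the filter too in the comparisons between lanes, which left 46 members there.

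**Figure D1:**
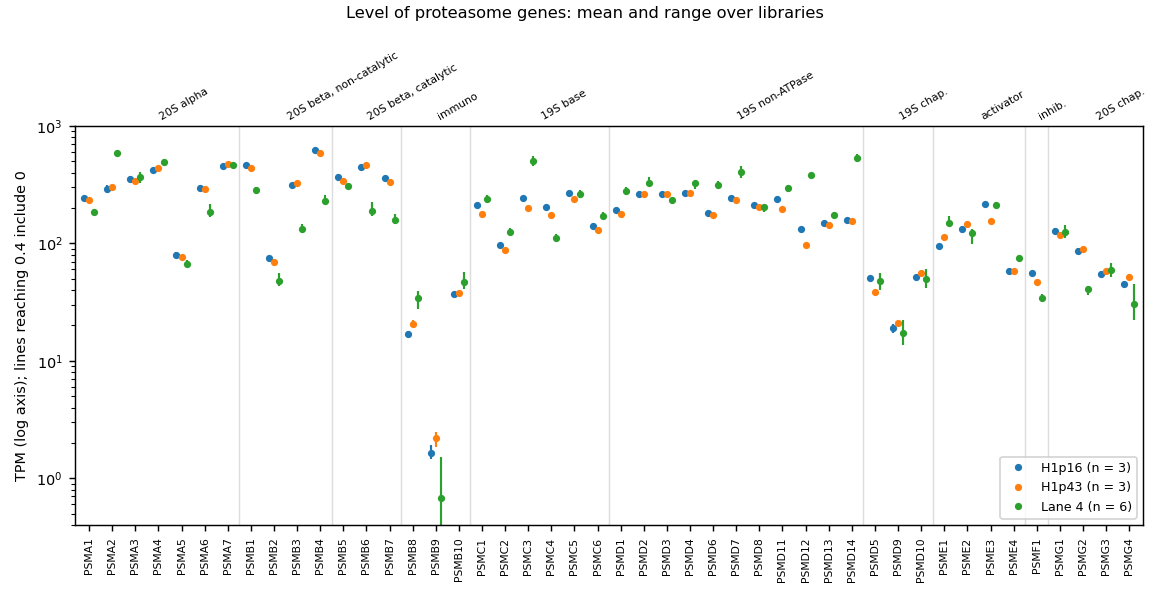
Level of each proteasome gene in TPM on a log axis, grouped by role, for H1p16 (blue, n = 3), H1p43 (orange, n = 3) and LM-Seq Lane 4 (green, n = 6), with dots at the mean and lines from the lowest to the highest library. PSMB9 lies lowest among the genes drawn, and the green dots leave the others most in the beta genes, below them, and at PSMD12 and PSMD14, above them; PSMA8, PSMB11 and PSMC3IP are not drawn.

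Some members share reads with neighbours. RSEM, which estimated the counts, divides reads that fit several genes, and a value that is not whole marks such a division. Only 1.12% of the 179 values of PSMC5 were whole (within 0.005), and 0% of those of PSMC3IP, so both are uncertain; in the annotation they overlap FTSJ3 and MLX on the opposite strand. The next lowest shares were 20.7% for PSMB2, 46.4% for PSME4, 50.3% for PSMD5 and 50.8% for PSMD9, so part of their reads was divided in many libraries. PSMA2, PSMD13, PSME2, PSME4 and PSMG2 overlap MRPL32, SIRT3, RNF31, ACYP2 and CEP76 on the opposite strand, and PSMD9 overlaps WDR66 on the same strand. No source used here says whether strand entered the counting, so reads of these pairs cannot be told apart with certainty. Whole values made up 97.2% for PSMG2, 94.4% for PSME2, 82.7% for PSMD13 and 73.7% for PSMA2.

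Each of the 3 immunoproteasome subunits was present at a lower level than the constitutive subunit whose place it takes. Mean shares by group ran from 0.349% for PSMB9 in Lane 1 to 30.8% for PSMB10 in Lane 2. Promoter sequences are printed here for PSMB8, PSMB10, PSME1 and PSME2, the interferon-inducible members whose promoter window holds the interferon response core (GAAA, any 2 bases, GAAA) on either strand, since PSMB8 and PSME1 were the 2 members called higher in H1p43. Each runs from 200 bases before the start to 20 after it in RefSeq on GRCh38.p14 (the counts were made on hg19, so these positions serve for sequence only), 5′ to 3′ on the gene's strand, with the match in capitals.
PSMB8: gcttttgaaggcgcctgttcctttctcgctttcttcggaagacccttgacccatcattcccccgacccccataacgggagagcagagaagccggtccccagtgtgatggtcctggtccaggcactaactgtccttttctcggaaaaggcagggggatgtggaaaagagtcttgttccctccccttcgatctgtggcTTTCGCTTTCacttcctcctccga
PSMB10: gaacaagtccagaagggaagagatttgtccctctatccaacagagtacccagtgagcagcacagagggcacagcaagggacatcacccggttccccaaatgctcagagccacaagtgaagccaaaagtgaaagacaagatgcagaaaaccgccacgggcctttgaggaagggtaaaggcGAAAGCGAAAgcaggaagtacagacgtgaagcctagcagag
PSME1: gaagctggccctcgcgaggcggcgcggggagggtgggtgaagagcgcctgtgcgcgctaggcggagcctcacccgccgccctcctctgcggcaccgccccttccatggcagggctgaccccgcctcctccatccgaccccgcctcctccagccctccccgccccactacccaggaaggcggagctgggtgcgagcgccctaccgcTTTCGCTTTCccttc
PSME2: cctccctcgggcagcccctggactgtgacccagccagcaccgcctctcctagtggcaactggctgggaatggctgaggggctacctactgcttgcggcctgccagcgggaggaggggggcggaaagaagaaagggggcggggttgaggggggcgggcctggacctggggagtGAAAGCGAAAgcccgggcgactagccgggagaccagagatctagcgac

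These windows lie at chr6:32844028-32844247 on the minus strand for PSMB8, chr16:67936831-67937050 on the minus strand for PSMB10, chr14:24135994-24136213 on the plus strand for PSME1 and chr14:24146591-24146810 on the minus strand for PSME2. The match begins 4 bases before the start in PSMB8, 21 before it in PSMB10 and 28 before it in PSME2, and at base 5 from the start in PSME1. With windows of 300 bases (250 before the start and 50 after), 42 of the 48 genes were found in the table, with 51 windows among them. The core occurred in 7 of these 51 windows (13.7%), against 3.57% of all 35116 promoters, and the other genes were PSMA4, PSMB4 and PSMG4. Of these 7 genes, PSMB4 was called lower in H1p43 by edgeR, and PSMA4, PSMB10, PSME2 and PSMG4 were not called. PSMB9 has no match in its window, and a further window of PSMB8 has none. CCAAT occurred in 20 windows (39.2%, against 34.6% of all promoters). A match is a description of letters and not of a bound site.

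PSMB8, which replaces the chymotrypsin-like PSMB5, measured 16.7, 16.4 and 17.8 TPM in the H1p16 libraries and 20.01, 20.01 and 22.3 TPM in the H1p43 libraries. In Lane 4 it ranged from 27.5 to 39.5 TPM with a median of 34.8 TPM. The 3 groups did not overlap, and the order was H1p16, H1p43, Lane 4. PSMB10, which replaces the trypsin-like PSMB7, measured 38.03, 36.4 and 36.3 TPM in H1p16 and 35.5, 39.1 and 38.2 TPM in H1p43, and 40.8 to 57.02 TPM with a median of 45.7 TPM in Lane 4. Its TruSeq groups overlapped each other and lay below all of Lane 4. PSMB9, which replaces the caspase-like PSMB6, was close to the limit of detection: 1.90, 1.46 and 1.56 TPM in H1p16 and 2.49, 2.22 and 1.85 TPM in H1p43, from 22 to 41 counts per TruSeq library. Lane 4 held 27 counts of PSMB9, 2 of its 6 libraries had none, and the highest was at 1.53 TPM.

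Their constitutive partners were higher. PSMB5 measured 354, 368 and 389.8 TPM in H1p16 and 333, 347 and 338 TPM in H1p43, with every H1p16 library above every H1p43 library, and 298 to 322 TPM (median 305 TPM) in Lane 4, below both. PSMB6 measured 449, 435 and 449 TPM in H1p16 and 471, 454 and 469 TPM in H1p43, with H1p43 above H1p16, and fell to 170.1 to 225 TPM (median 181 TPM) in Lane 4. PSMB7 measured 363, 356 and 359.8 TPM in H1p16 and 333, 336 and 328 TPM in H1p43, with H1p43 below H1p16, and 144.9 to 179 TPM (mean 157.5 TPM) in Lane 4. So TruSeq and Lane 4 differed far more for PSMB6 and PSMB7 than for PSMB5.

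Each immunoproteasome subunit was therefore set against the partner whose place it takes, as a percent of TPM. PSMB8 stood at 4.58% ± 0.142 (SD, n = 3) of PSMB5 in H1p16, 6.13% ± 0.426 (SD, n = 3) in H1p43 and 11.2% ± 1.5 (SD, n = 6) in Lane 4. PSMB10 stood at 10.3% ± 0.206 of PSMB7 in H1p16, 11.3% ± 0.548 in H1p43 and 29.9% ± 4.39 in Lane 4, with the same n. For PSMB9 against PSMB6 the values were 0.369% ± 0.0475, 0.470% ± 0.0689 and 0.384% ± 0.386. Lanes 1, 2 and 3 gave means of 10.98%, 11.3% and 11.4% for PSMB8 and of 29.2%, 30.8% and 29.3% for PSMB10, close to Lane 4, while single Lane 1 libraries ran from 2.98% to 18.9% for PSMB8, of which the median Lane 1 library held 22 counts.

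The ratios were tested as log2((TPM + 1)/(TPM + 1)) with exact permutation tests over libraries, two-sided, adjusted over the 3 pairs. From TruSeq to Lane 4 the log2 ratio of PSMB8 to PSMB5 was higher by 1.04 and that of PSMB10 to PSMB7 by 1.45, each with no overlap between the groups and an adjusted p of 0.00325, for a raw exact p of 0.00217, which is the smallest that 6 libraries against 6 can give. Of the genes in the second ratio, PSMB7 was lower by 1.10 on the log2 scale (fold change -1.10) and PSMB10 higher by 0.37 in the fits given below. The PSMB9 to PSMB6 ratio differed by 0.39 (exact p = 0.217, adjusted p = 0.217), and this sign turned with a smaller pseudocount, so no direction can be read for it. From H1p16 to H1p43 the PSMB8 ratio was higher by 0.40 and the PSMB10 ratio by 0.14, each without overlap, with an exact p of 0.1 (adjusted p = 0.15), which is the smallest that 3 against 3 can give. The PSMB9 ratio differed by 0.20 between H1p16 and H1p43, with overlapping groups (exact p = 0.2, adjusted p = 0.2).

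**Figure D2:**
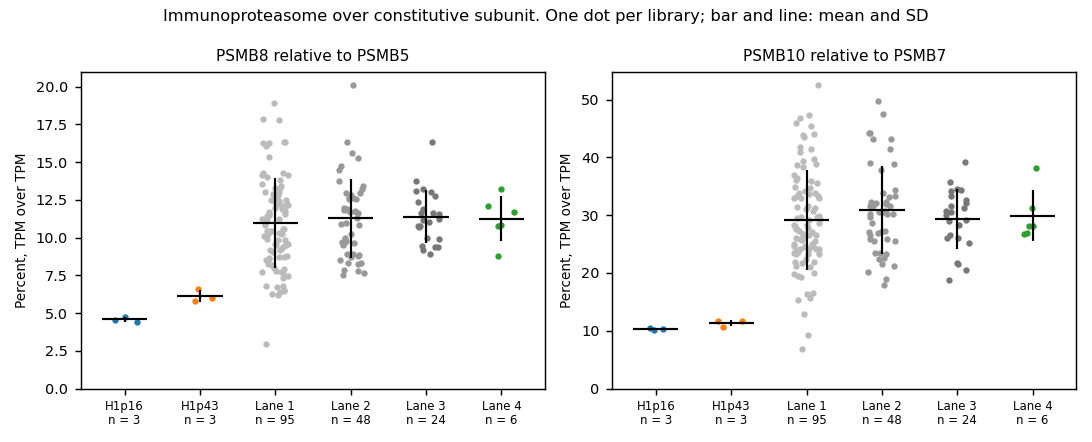
TPM of PSMB8 as a percent of PSMB5 (left) and of PSMB10 as a percent of PSMB7 (right), 1 dot per library, with a black bar at the mean and a line of 1 SD to each side. The TruSeq groups lie at means of 4.58% and 6.13% on the left, below the mean of 11.2% in Lane 4, and Lane 1, with the fewest counts per library, scatters most.

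H1p43 was compared with H1p16 within the TruSeq kit. Transcripts of the cap were lower in H1p43 by modest amounts in edgeR's fit. There all 17 cap subunits were called lower, the core was called lower in part, and PSMB8 and PSME1 were called higher. On the TPM scale only part of the cap kept its call, as given by role below. TPM of PSMD2, PSMD3, PSMD4, PSMD7, PSMD8, PSMD13 and PSMD14 overlapped between the groups. Of 47 members tested, 34 were called (edgeR's quasi-likelihood test, Benjamini-Hochberg adjusted p below 0.05 over all genes), 2 higher and 32 lower. Over all 14574 genes, 71.8% were called, 36.4% higher and 35.4% lower. The share of members called was near that of all genes. The median log2 fold change was -0.16 over the members and 0.01 over all genes tested. On the TPM scale (limma on log2(TPM + 1)), 8 members were called higher and 19 lower, against 47.1% and 26.3% of all genes (73.3% in either direction), with medians of -0.05 and 0.09. The 19 lower calls and the 2 higher calls PSMB8 and PSME1 were common to both scales, and no member was called in opposite directions.

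By role, all 6 base ATPases and all 11 non-ATPase cap subunits were called lower, with medians of -0.31 and -0.16. On the TPM scale the base kept 6 of 6 lower calls and the non-ATPase subunits 3 of 11. The alpha ring had 4 of 7 lower, the non-catalytic beta subunits 3 of 4 and the constitutive catalytic subunits 2 of 3. On the TPM scale the beta subunits kept these 5 lower calls, and the alpha ring kept none of its 4 and had PSMA7 called higher. Of the chaperones that build the cap, PSMD5 fell and PSMD9 and PSMD10 were not called. Of those that build the core, PSMG1 fell and PSMG2, PSMG3 and PSMG4 were not called. PSMF1, the inhibitor PI31, fell by 0.35 ± 0.03 (SE, adjusted p = 3.96e-09). TPM did not overlap between the groups for 27 members, 7 higher and 20 lower in H1p43, where 73.7% of all genes did not overlap (47.9% higher and 25.9% lower). The pluripotency markers moved alongside, with 7 of 8 called lower and sums that did not overlap. Other marker sums did not overlap either. Neuroectoderm summed to 131.3 to 139.2 TPM in H1p16 and 113.1 to 115.6 TPM in H1p43, and trophoblast to 6.96 to 9.40 and 12.7 to 13.7 TPM. Both sums rest on few genes. Of 6 neuroectoderm markers, 1 reached a mean of 1 TPM in H1p16 and 2 in H1p43, and of 5 trophoblast markers 1 did in each group. Of 3 neuroectoderm markers tested, 2 were called higher and 1 lower, so most went against the fall of the sum. The sums of stroma (3 of 5 tested called higher and 1 lower) and leukocytes, as given above, did not overlap. The part of any of these marker lists in the members' values was not tested. In bulk RNA fewer cells of a type and less RNA per cell cannot be told apart.

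**Figure D3:**
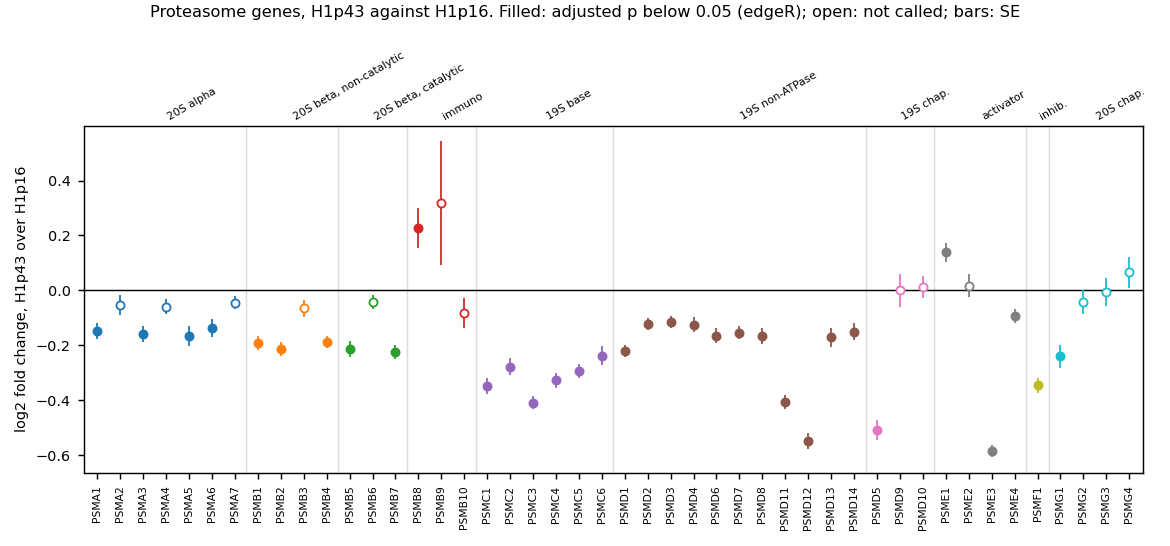
Log2 fold change of each proteasome gene, H1p43 over H1p16 (n = 3 each), grouped and coloured by role, with bars of 1 SE; filled dots passed an adjusted p of 0.05 in edgeR's quasi-likelihood test. All 6 base ATPases and all 11 non-ATPase cap subunits lie below 0, and PSMB8 and PSME1 are the 2 filled dots above it.

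The largest fall was that of PSME3, the nuclear activator PA28 gamma. It measured 217, 213 and 216 TPM in H1p16 and 155.97, 153.59 and 155.34 TPM in H1p43, so the groups lay well apart. Its log2 fold change was -0.58 ± 0.02 (SE), with an adjusted p of 1.11e-13 by edgeR's quasi-likelihood test. The other activators did not follow. PSME1 (PA28 alpha) measured 94.1, 94.7 and 98.3 TPM in H1p16 and 112.84, 114.62 and 113.77 TPM in H1p43, again without overlap, and rose by 0.14 ± 0.04 (SE, adjusted p = 0.00197). Its partner PSME2 differed by 0.02 ± 0.04 (adjusted p = 0.723), and PSME4 was called lower at -0.09 ± 0.02 (adjusted p = 0.00309). The sign for PSME4 turned on the TPM scale (0.02, limma, adjusted p = 0.589), with means of 58.01 TPM in H1p16 and 58.7 TPM in H1p43 and overlapping groups, so it has no settled direction.

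PSMD12, a subunit of the lid of the cap, measured 129.19, 134.12 and 132.88 TPM in H1p16 and 97.5, 95.7 and 98.6 TPM in H1p43. All H1p43 libraries were below all H1p16 libraries, and the log2 fold change was -0.55 ± 0.03 (SE, adjusted p = 1.57e-11). PSMD5, a chaperone that holds the base before the cap is complete, measured 48.5, 50.5 and 53.2 TPM in H1p16 and 37.9, 38.4 and 39.4 TPM in H1p43. Those groups were separate as well, though its reads were divided in many libraries, with a log2 fold change of -0.51 ± 0.04 (SE, adjusted p = 7.71e-10). PSMC3IP, which is no proteasome gene, measured 33.8, 32.3 and 30.5 TPM against 25.9, 24.2 and 22.8 TPM (log2 fold change -0.51 ± 0.06, adjusted p = 3.54e-07). Its fall was of like size to that of PSMD5, though its counts are uncertain.

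Among the cutting subunits PSMB8 rose by 0.23 ± 0.07 on the log2 scale (SE, adjusted p = 0.00991), and this call rests on few libraries: with DESeq2 it was 0.22 (adjusted p = 0.0518), without H1p16 replicate 2 it was 0.20 (adjusted p = 0.0517) and without H1p43 replicate 3 it was 0.16 (adjusted p = 0.0852). PSMB9 differed by 0.32 ± 0.22 (adjusted p = 0.214) and PSMB10 by -0.08 ± 0.06 (adjusted p = 0.192). PSMB5 fell by 0.21 ± 0.03 (adjusted p = 4.06e-06) and PSMB7 by 0.22 ± 0.02 (adjusted p = 2.61e-07). PSMB6 was not called (-0.04 ± 0.03, adjusted p = 0.146), and on the TPM scale it was called higher by 0.07 (limma, adjusted p = 0.024), so it has no settled direction. The changes were small throughout. When a fold of at least 1.2 was required, 9 members were called, all lower, where 36.6% of all genes were called, 20.7% higher and 15.8% lower.

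NFE2L1, a transcription factor that raises proteasome genes when the proteasome is inhibited, binds antioxidant response elements. The core of that element, TGACNNNGC on either strand, occurred in 15 of the 51 windows of 300 bases (29.4%), against 13.3% of all promoters. These belonged to PSMA4, PSMB3, PSMB9, PSMC4, PSMC5, PSMD1, PSMD3, PSMD5, PSMD9, PSMD12, PSME1, PSME2, PSME4, PSMG1 and PSMG2. The windows of PSMD12 and PSMD5 are shown because both genes were among the largest falls in H1p43, with the match in capitals.
PSMD12: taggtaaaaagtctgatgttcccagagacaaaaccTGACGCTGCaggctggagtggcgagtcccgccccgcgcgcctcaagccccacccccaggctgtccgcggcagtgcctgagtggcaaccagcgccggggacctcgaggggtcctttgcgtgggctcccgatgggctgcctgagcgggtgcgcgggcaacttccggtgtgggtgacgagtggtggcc
PSMD5: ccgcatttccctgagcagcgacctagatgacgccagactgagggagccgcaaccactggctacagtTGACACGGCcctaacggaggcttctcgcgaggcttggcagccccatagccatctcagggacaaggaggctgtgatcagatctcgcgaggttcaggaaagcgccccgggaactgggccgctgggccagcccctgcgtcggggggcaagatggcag

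They lie at chr17:67366558-67366777 (PSMD12) and chr9:120842903-120843122 (PSMD5) of GRCh38.p14, both on the minus strand. PSME3, which fell most, and PSMC3 and PSMD11, which fell by 0.41 ± 0.03 (adjusted p = 1.06e-10) and 0.40 ± 0.03 (adjusted p = 1.54e-10), are not among the 15 genes. PSME1, which rose, is among them. Whether the element or NFE2L1 has a part in any of these changes was not tested.

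Genes that work with the proteasome were followed in 5 lists, to be read against the 71.8% of all genes called (36.4% higher and 35.4% lower, median 0.01). Of 10 associated factors tested, 1 was higher and 7 lower in H1p43, with a median log2 fold change of -0.25. KIAA0368 (ECM29), which clamps cap to core, fell by 0.62 ± 0.02 (adjusted p = 1.38e-13), ZFAND5 fell by 0.58 ± 0.03 (adjusted p = 2.3e-12), and PAAF1, a chaperone of the base, rose by 0.38 ± 0.05 (adjusted p = 6.5e-07). Of 8 regulators of proteasome genes, 7 were lower and none higher, with a median of -0.41. FOXO4 fell by 0.72 ± 0.04 (adjusted p = 1.94e-11), DDI2, the protease that activates NFE2L1, by 0.71 ± 0.05 (adjusted p = 8.02e-10) and the ubiquitin ligase SYVN1 by 0.44 ± 0.04 (adjusted p = 8.22e-09). NFE2L1 itself measured 167.9 TPM in H1p16 and 135.7 TPM in H1p43 on average.

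Ubiquitin genes and activating enzymes had 4 of 6 lower and none higher, with a median of -0.13. The polyubiquitin gene UBB fell by 0.17 ± 0.02 (adjusted p = 1.47e-07). Shuttles and the unfoldase had 9 of 11 lower and 2 higher, with a median of -0.18. The shuttle RAD23B fell by 0.37 ± 0.02 (adjusted p = 7.61e-11), UFD1L by 0.35 ± 0.04 (adjusted p = 9.04e-08) and UBQLN2 by 0.30 ± 0.03 (adjusted p = 1.31e-07). MHC class I presentation and interferon genes split, with 9 of 17 higher and 5 lower and a median of 0.12. HLA-E rose by 0.60 ± 0.04 (adjusted p = 2.88e-10) and the peptide-loading chaperone TAPBP by 0.56 ± 0.05 (adjusted p = 4.74e-08), while CANX, a chaperone of the endoplasmic reticulum, fell by 0.59 ± 0.02 (adjusted p = 5.39e-14).

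LM-Seq Lane 4, the deepest of the LM-Seq lanes, was then compared with all 6 TruSeq libraries. Here the core and the cap parted: beta subunits were mostly lower in Lane 4 and cap subunits mostly higher. Of 47 members, 36 were called by edgeR's quasi-likelihood test, 21 higher and 15 lower in Lane 4, where 71.3% of all 13827 genes were called (34.3% higher and 36.9% lower). The median log2 fold change was 0.12 over the members and -0.06 over all genes. On the TPM scale 21 were higher and 17 lower, against 34.9% and 39.7% of all genes (74.5% in either direction). TPM did not overlap for 34 members (20 higher and 14 lower), where 53.9% of all genes did not (26.6% higher and 27.2% lower). Kit, lane and any difference between the cultures cannot be told apart in this comparison. Summed pluripotency markers were also higher in Lane 4 than in any TruSeq library, with 6 of 8 markers called higher and 2 lower. Stroma sums were lower, as given above, with 2 of 5 markers tested called higher and 3 lower. Neuroectoderm sums were higher, at 189 to 240.0 TPM against 113.1 to 139.2 TPM. In Lane 4 only 1 of the 6 neuroectoderm markers reached a mean of 1 TPM. Of 3 neuroectoderm markers tested, 1 was called higher and 1 lower, with a median log2 fold change of -0.69, so the list has no single direction. The part of these marker lists in the members' values was not tested.

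In the core, 2 of 14 subunits were higher and 9 lower, with a median of -0.44. The beta ring had 6 of 7 lower, all but PSMB5, which was at -0.05 ± 0.06 (adjusted p = 0.488) and was called lower on the TPM scale (limma, -0.21, adjusted p = 0.000415). The alpha ring had PSMA2 and PSMA4 higher and PSMA1, PSMA5 and PSMA6 lower. In the cap, 13 of 17 subunits were higher and 2 lower, with a median of 0.36. The exceptions called lower were the ATPase PSMC4 (-0.74 ± 0.08, adjusted p = 4.11e-07) and the non-ATPase PSMD3 (-0.12 ± 0.05, adjusted p = 0.0301), and PSMC5 and PSMD8 were not called. Of the activators, PSME1 was higher by 0.56 ± 0.06 (adjusted p = 5.42e-07) and PSME4 by 0.39 ± 0.04 (adjusted p = 8.17e-07), and PSME2 and PSME3 were not called. PSMF1 was lower by 0.56 ± 0.08 (log2 fold change -0.56, adjusted p = 1.47e-05). Among the core chaperones PSMG3 was higher (not called on the TPM scale) and PSMG2 and PSMG4 lower.

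**Figure D4:**
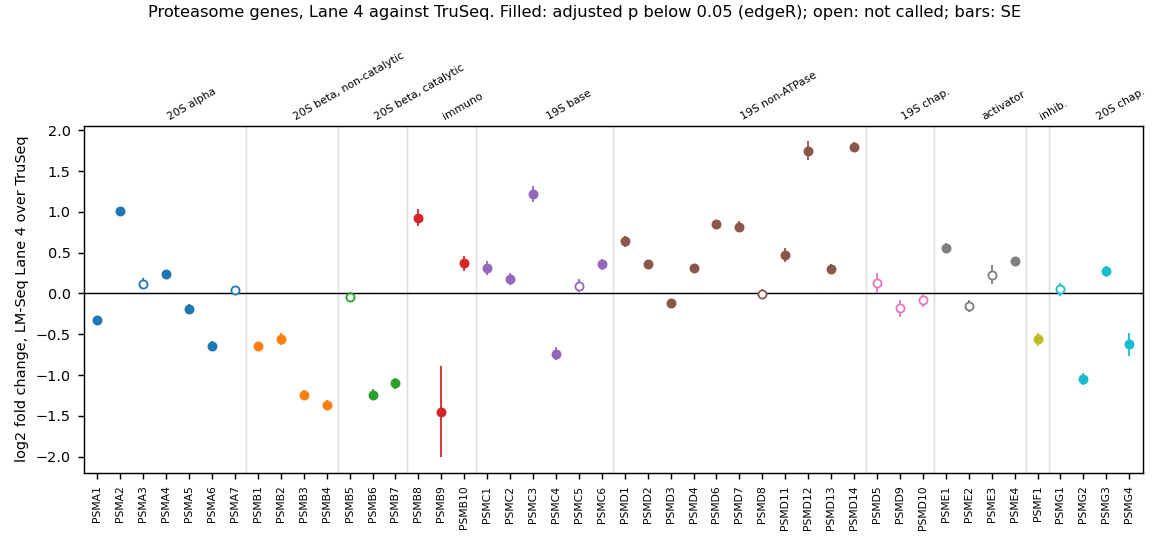
Log2 fold change of each proteasome gene, LM-Seq Lane 4 (n = 6) over TruSeq (n = 6), grouped and coloured by role, with bars of 1 SE; filled dots passed an adjusted p of 0.05 in edgeR's quasi-likelihood test. In the beta ring 6 of 7 genes are filled below 0, and 13 of 17 cap genes are filled above it.

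PSMD14, the enzyme that removes ubiquitin from substrates, measured 150.8 to 164.03 TPM (median 154.7 TPM) in TruSeq and 498 to 572 TPM (median 526 TPM) in Lane 4. The lowest Lane 4 library was above the highest TruSeq library by a wide margin, and the log2 fold change was 1.802 ± 0.06 (SE, adjusted p = 2.92e-13). PSMD12 measured 95.7 to 134.12 TPM (median 113.9 TPM) in TruSeq and 362 to 399.7 TPM (median 378 TPM) in Lane 4. These groups were as far apart, with a log2 fold change of 1.75 ± 0.11 (SE, adjusted p = 1.03e-09). PSMC3, an ATPase of the base, measured 198 to 249 TPM (median 220.4 TPM) in TruSeq and 459 to 559 TPM (median 509 TPM) in Lane 4. It too showed no overlap, at 1.22 ± 0.10 (SE, adjusted p = 1.27e-08). PSMC3IP was higher by 1.32 ± 0.12 (adjusted p = 3.89e-08), at a mean of 28.2 TPM in TruSeq and 70.1 TPM in Lane 4.

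Among members with a mean of at least 5 TPM, the 4 largest falls were all in the beta ring. PSMB4 measured 588 to 629 TPM (median 604 TPM) in TruSeq and 217 to 256 TPM (median 228 TPM) in Lane 4. That moved it from the most abundant member to place 19 of 49, at a log2 fold change of -1.36 ± 0.06 (SE, adjusted p = 1.32e-11). PSMB3, another beta subunit with no cutting site, measured 305 to 327 TPM (median 325 TPM) in TruSeq and 122.11 to 145.2 TPM (median 132.4 TPM) in Lane 4, again without overlap. Its log2 fold change was -1.24 ± 0.06 (SE, adjusted p = 1.50e-11). PSMB6 and PSMB7, whose values are given above, were at -1.24 ± 0.07 (adjusted p = 1.44e-10) and -1.10 ± 0.07 (adjusted p = 6.89e-10).

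Among the immunoproteasome subunits PSMB8 was higher in Lane 4 by 0.93 ± 0.11 (adjusted p = 1.1e-06) and PSMB10 by 0.37 ± 0.09 (adjusted p = 0.00204). PSMB9 was called lower at -1.45 ± 0.56 (adjusted p = 0.0297) with overlapping groups. It passed the filter on low counts through TruSeq, where it is higher, and fails it between lanes, so the filter favoured this direction. That call was lost against H1p16 alone (-1.29, adjusted p = 0.129), against H1p43 alone (-1.58, adjusted p = 0.0583) and at a common depth (-1.18, adjusted p = 0.0818). Against the H1p16 libraries alone 20 members were called higher and 15 lower, where 66.8% of all genes were called (33.4% higher and 33.4% lower). Against the H1p43 libraries alone the counts were 26 and 12, where 73.2% of all genes were called (35.5% higher and 37.8% lower). The lower calls of PSMD3 (-0.06, adjusted p = 0.234) and PSMA5 (-0.09, adjusted p = 0.0914) were lost against H1p43 alone, and the higher call of PSMC2 was lost against H1p16 alone (0.03, adjusted p = 0.67). The median over the members was -0.05 against H1p16 and 0.26 against H1p43, so its direction depends on the TruSeq group.

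Transcript levels of the subunits can be set against each other within each library, with no scaling between libraries. They are levels of RNA, and the make-up of the assembled particle was not measured. The mean TPM per gene of the 17 cap subunits was 0.596 ± 0.0096 (SD, n = 3) times that of the 14 core subunits in H1p16 and 0.554 ± 0.0021 (SD, n = 3) in H1p43. In Lane 4 the ratio was 1.09 ± 0.048 (SD, n = 6), and Lanes 1, 2 and 3 had means of 1.09, 1.09 and 1.11. The ratio of the beta ring to the alpha ring went the other way, from 1.24 in H1p16 and 1.19 in H1p43 to 0.573 in Lane 4 and 0.583, 0.583 and 0.59 in Lanes 1, 2 and 3. No TruSeq library overlapped any LM-Seq library in either ratio: TruSeq reached at most 0.606 for cap over core, and the lowest of the LM-Seq libraries was at 0.922. H1p43 also lay below H1p16 in both ratios.

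**Figure D5:**
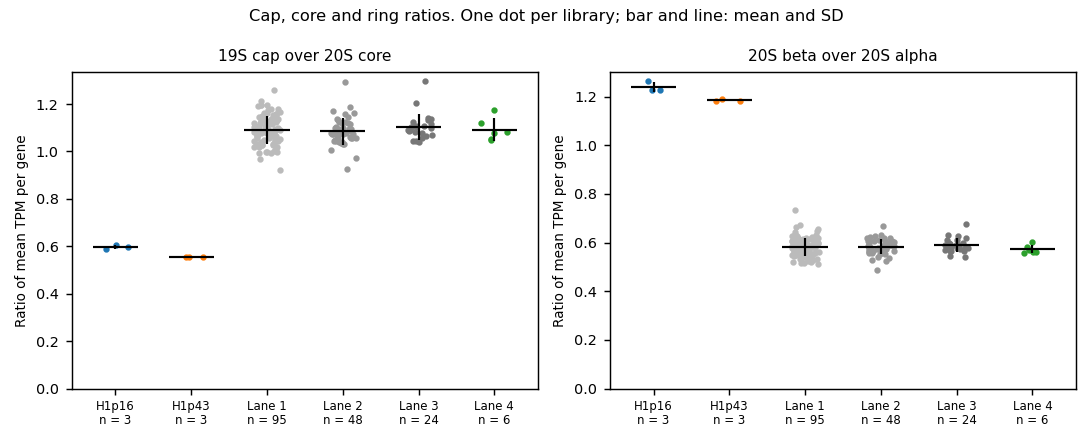
Ratio of the mean TPM per gene of the 19S cap to the 20S core (left) and of the beta ring to the alpha ring (right), 1 dot per library, with a black bar at the mean and a line of 1 SD to each side. Every TruSeq dot is at or below 0.606 on the left and every LM-Seq dot at or above 0.922, and the order turns around on the right.

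The order of the members by level was nearly the same in H1p16 and H1p43 (Spearman's rho 0.994 over 48 genes) and in Lane 1 and Lane 4 (0.999), and less so in TruSeq and Lane 4 (0.779). These are descriptions over genes that share libraries. Transcript length moved with the difference between Lane 4 and TruSeq. Set against the median gene, the effective length read from counts and TPM had a median of 0.29 in the beta ring, 0.39 in the alpha ring, 0.51 in the base and 0.55 in the non-ATPase cap subunits. Over 46 members the log2 fold change correlated with the log of that length at r = 0.24 and rho = 0.365, and over 12286 genes at r = 0.31 and rho = 0.304. The part of length in the difference was not tested.

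The other genes of the pathway also differed between Lane 4 and TruSeq, where 71.3% of all genes were called (34.3% higher and 36.9% lower, median -0.06). Of 10 associated factors, 8 were higher and 1 lower in Lane 4, with a median of 0.46. POMP, which matures the core, was higher by 1.47 ± 0.07 (adjusted p = 1.87e-11), the deubiquitinase UCHL5 by 0.76 ± 0.07 (adjusted p = 1.63e-07) and PAAF1 by 0.75 ± 0.10 (adjusted p = 5.17e-06). Of 8 regulators 5 were higher and 2 lower, with a median of 0.47. SYVN1 was at -1.19 ± 0.13 (adjusted p = 5.38e-07), NGLY1, which removes sugars from NFE2L1, at 0.72 ± 0.06 (adjusted p = 4.42e-08) and NFYA, a subunit of the factor that binds CCAAT, at 0.71 ± 0.09 (adjusted p = 3.29e-06).

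Ubiquitin genes and activating enzymes had 2 of 6 higher and 4 lower, with a median of -0.28. The activating enzymes went apart, with UBA1 at -1.08 ± 0.05 (adjusted p = 9.17e-12) and UBA6 at 1.12 ± 0.05 (adjusted p = 9.37e-12). Of 11 shuttles and unfoldase genes, 2 were higher and 6 lower, with a median of -0.16. UBQLN2 was at -0.88 ± 0.08 (adjusted p = 6.46e-08) and the unfoldase VCP at 0.99 ± 0.05 (adjusted p = 1.68e-10). MHC class I and interferon genes had 5 of 17 higher and 8 lower, with a median of -0.24. HLA-E was at -0.91 ± 0.14 (adjusted p = 3.68e-05), while the chaperones CANX and CALR were at 1.44 ± 0.11 (adjusted p = 1.37e-08) and 1.24 ± 0.08 (adjusted p = 9.08e-10).

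Within LM-Seq, lanes were compared over numbers found in both lanes, to ask whether sharing a lane among more samples moves the members. No member was called in Lane 2, Lane 3 or Lane 4 against Lane 1 by edgeR's quasi-likelihood test, and none of the 46 reached an unadjusted p below 0.05 in any of the 3. These fits were not paired by library number, so their standard errors also hold the spread between numbers. DESeq2 and limma also called none. Of all genes, edgeR called 0, 0 and 0.0161%, limma 0, 0 and 0.0159%, and edgeR with the library number as a block 0.257%, 0.405% and 0.105%, again with no member; unadjusted, the block put 2, 3 and 0 members below 0.05. TPM of no member was free of overlap between lanes, as for 0, 0 and 0.0805% of all genes (in Lane 4, 0.0564% higher and 0.0242% lower). Median log2 fold changes over the members were 0.0027, 0.0003 and -0.0042. The most distant members in Lane 4 were PSMB10, at 0.14 ± 0.16 (SE, adjusted p = 0.9999), and PSMG2, at -0.10 ± 0.15 (SE, adjusted p = 0.9999). The standard errors of the unpaired fits set what those fits could see. For PSMB5, with a median of 208 counts per Lane 1 library, Lane 2 differed by -0.01 ± 0.02, and for PSMG4 by -0.11 ± 0.11.

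Levels held across lanes, while the median spread over the members grew as depth fell. PSMD14 ran from 446 to 601 TPM (median 527 TPM) in Lane 1, from 466 to 618 TPM (median 525 TPM) in Lane 2 and from 489 to 631 TPM (median 529 TPM) in Lane 3. PSMB8 ran from 10.7 to 57.8 TPM (median 35.2 TPM) in Lane 1, from 22.7 to 56.5 TPM (median 34.4 TPM) in Lane 2 and from 27.2 to 47.2 TPM (median 35.86 TPM) in Lane 3. The median was steady for both. The range narrowed from Lane 1 to Lane 3 for PSMB8, the weaker of them, though a range also narrows with fewer libraries. The coefficient of variation of PSMB8 was 26.3%, 21% and 14.5% in Lanes 1, 2 and 3. That of PSMD14 was 7.32%, 6.41% and 6.77%, with no steady fall. PSMB9 had no count in 74 of 95 Lane 1 libraries, 28 of 48 in Lane 2 and 7 of 24 in Lane 3. Over the 46 members the median coefficient of variation was 9.54% in Lane 2, 8.9% in Lane 3 and 6.1% in Lane 4. Between Lane 1 libraries it was 11.8%, against 8.64% from counting alone. The observed spread was 1.013 times the counting spread for PSMD10 and 2.42 times for PSMC3, the lowest and highest of the members.

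Part of that spread belonged to the library number. Over the 48 numbers in both lanes, log2(TPM + 1) in Lane 2 correlated with that in Lane 1 for 41 of 46 members (permutation test, 100000 permutations, one-sided for a positive correlation, adjusted over all genes), where 81.2% of 9896 genes passed. The median r was 0.489 over the members and 0.405 over all genes. The share of members was thus near the background. PSMC3 had r = 0.749 and rho = 0.632 (adjusted p = 6.1e-05 and 8.9e-05), and r = 0.639 without the 2 libraries farthest from the median. PSMD2, a scaffold of the cap, had r = 0.747 and rho = 0.622, and r = 0.64 without them. PSMD7, the partner of PSMD14 in the lid, had r = 0.737 and rho = 0.77, and r = 0.701 without them. For PSMD2 and PSMD7 the adjusted p-values were those of PSMC3, which come from the smallest p that these permutations can give, 1e-05.

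Not every member repeated. PSMB5 (r = 0.228, adjusted p = 0.0692), PSMD9 (r = 0.239, adjusted p = 0.0617), PSMD10 (r = 0.204, adjusted p = 0.0921), PSMD11 (r = 0.247, adjusted p = 0.0563) and PSMF1 (r = 0.189, adjusted p = 0.11) were not called in that permutation test. With rank correlation PSMD9 was called (rho = 0.312, adjusted p = 0.0244), and in Lane 3 PSMD11 was called (r = 0.526, permutation test, adjusted p = 0.0114), while the other 4 were not called there. PSMB8 was called at r = 0.344 (permutation test, adjusted p = 0.0129) and at rho = 0.316 (adjusted p = 0.023). PSMB10 was called at r = 0.588 (permutation test, adjusted p = 6.1e-05) and at rho = 0.613 (adjusted p = 8.9e-05). In Lane 3, over 24 numbers, 36 of 46 members were called, where 64.7% of 9856 genes were. PSMB10 correlated between Lane 3 and Lane 1 at r = 0.513 (permutation test, adjusted p = 0.0137) and PSMB8 at r = 0.0486 (adjusted p = 0.424). So the difference between libraries in PSMB10 was seen again in both lanes, and that in PSMB8 passed the test in Lane 2 and not in Lane 3, a difference that was not itself tested. Whether a number marks the same RNA, the same library or another feature was not tested.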

How the data were processed

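The submitters' processing notes name CASAVA 1.8.2, Bowtie 0.12.8 and RSEM 1.2.3, and the build hg19. For 19084 genes in 179 libraries, the authors deposited RSEM's expected counts and its TPM, without coordinates.

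The edgeR 4.0.16 quasi-likelihood test (R 4.3.3) was run on rounded expected counts of genes passing filterByExpr, scaled by TMM and without covariates, with a call where p, adjusted over all genes tested (Benjamini-Hochberg), was below 0.05. Standard errors come from the fold change and its F statistic. The procedure was tested on simulated data. It was repeated with DESeq2 1.42.0, with RLE factors, unfiltered, with limma 3.58.1 on log2(TPM + 1) where the mean reached 1 TPM, with a fold minimum of 1.2, on thinned counts, leaving out each TruSeq replicate, against 1 TruSeq group, with all libraries of each lane, and blocking on the replicate number. Full values are given for the 6 cutting subunits, for the 4 largest called changes in each direction with a mean of at least 5 TPM, and for the extremes of level. Each other list is shown by up to 3 called genes with the largest change, of which some are not reported here. The members, roles, lists and this rule were chosen with earlier results of these data known.

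Deviations from the lane means correlated between LM-Seq libraries of 1 number, at 0.179 to 0.685 between Lanes 2 and 1, at 0.212 to 0.603 between Lanes 3 and 1 and at 0.378 to 0.432 between Lanes 4 and 1. The numbers were therefore taken as pairs in the blocked fits and in the correlations between lanes, while the main fits between lanes were unpaired. No libraries of a group agreed within counting noise (chi-square per degree of freedom at least 1.29). Overlaps of genes were read from the GENCODE annotation of GRCh38 and promoters from RefSeq on GRCh38.p14. Correlations and motif counts are descriptions, and counting floors cover counting error only.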

Additional observations from a re-analysis of the deposited data

Results flagged for a closer look

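With 48 members checked in the 6 libraries of Lane 4, 3 had a library that stood far from the others, where chance alone marks about 1 gene in 20. The alpha subunit PSMA6 measured 217.07 TPM in its highest library and 169.1 to 183 TPM in the others. PSMB4 measured 256.29 TPM in its highest library and 217 to 228 TPM in the others. The ubiquitin receptor PSMD4 had its lowest library at 292.23 TPM, against 327 to 342 TPM in the others. The library concerned differs from gene to gene, and all 3 values stay on the same side of the TruSeq libraries as the rest of Lane 4.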

How the results depend on the processing

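For H1p43 against H1p16, members called numbered 9 with a fold of at least 1.2, in place of 34. Higher calls, 2 in all, numbered 1 with DESeq2, 8 with limma on log2(TPM + 1), 0 with the fold minimum, and 1 to 2 when each replicate was left out. Lower calls, 32 in all, numbered 19 with limma and 9 with the fold minimum, and the same 32 genes were called lower in every omission. PSMB6 turned to 0.066 and PSMB10 to 0.025 with limma, as did PSME4, called lower by edgeR, to 0.017, and PSMB5 in Lane 4 to 0.071 against H1p43 alone. The log2 ratio of PSMB9 to PSMB6 in Lane 4 against TruSeq turned to -0.80 with a pseudocount of 0.1 and to -0.91 on counts plus 0.5 (exact adjusted p = 0.385 for both), and the cause was not tested. Other ratios kept their direction and call and other counts of members moved by less than 1.5 times. Direction and call held for 233 values of named members, while 11 lost and 3 gained a call. With the replicate number as a block, H1p43 against H1p16 gave 35 called members (2 higher and 33 lower). Same-numbered TruSeq libraries correlated at -0.0343 to 0.0418, 1 of the 3 best with its own number. These values showed no pairing, though 3 numbers are too few to exclude one. The block changed no call of a member between lanes. No paired analysis was possible for Lane 4 against TruSeq because they share no replicate numbers. Depth limits PSMB9, at 27 counts over Lane 4.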
